A study of Danio rerio with 22 samples.

Results

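Germ cells of W-hybrid and Z-hybrid zebrafish larvae were compared at 14 days postfertilization (dpf) in the 3 Quartz-seq libraries made at that age, 2 of W-hybrid and 1 of Z-hybrid germ cells, out of the 22 libraries in all. The 3 libraries were taken by their sample labels, with no measured value used in the choice. Within them, abundant genes and genes for which both W-hybrid libraries lay well apart from the Z-hybrid library are described first, followed by the kinds of genes on each side. The question behind the comparison is how germ cells of presumptive females differ from those of presumptive males at 14 dpf. The study places the first sign of sexual dimorphism, in germ cell number, earlier, at 10 dpf.

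Every larva was a Nadia/Tupfel long-fin hybrid carrying Tg(ziwi:GFP), in which the ziwi promoter drives GFP in germ cells. By the study's methods, W-hybrids came from WW Nadia mothers crossed with transgenic Tupfel long-fin fish and were presumed to be all female. Z-hybrids came from ZZ Nadia fathers and transgenic Tupfel long-fin mothers and were presumed to be all male. The design text deposited with the series writes ZW for the Nadia parent of W-hybrids, which would leave larvae without a W among them, and which of these accounts holds cannot be told from these files. By the methods' account, the W locus, the direction of the cross and the mother's strain moved together and cannot be told apart. Larvae were picked by body length, the gonads of many larvae were pooled for each batch, and GFP-positive cells were sorted before amplification of the cDNA by Quartz-seq, a method for very small amounts of RNA. The remaining libraries hold germ cells of both hybrids at 12 dpf by Quartz-seq and at 10 and 12 dpf by Smart-seq, and trunk cells at 10 dpf.

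Early zebrafish gonads of both sexes pass through a phase in which germ cells resemble immature oocytes. Oocytes then enter the long prophase of the first meiotic division, in which homologous chromosomes are tied to an axis, broken, paired and joined by the synaptonemal complex, while germ cells of future males stay mitotic for longer. RNA-binding proteins, piRNA factors and maternal transcription factors are the best known products of such cells.

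The level of a gene is given as TPM, its transcripts scaled for gene length and library depth, and differences as the log2 fold change of W-hybrid over Z-hybrid from edgeR's quasi-likelihood test on the counts. Counts summed to 33416476 and 35790452 in the W-hybrid, against 30748547 in the Z-hybrid, within the range of 13556583 to 37224644 over the 22 libraries. At least 10 counts were found for 18968 and 20386 genes in the W-hybrid, against 16623 genes in the Z-hybrid, and the Z-hybrid library at 12 dpf by Quartz-seq stood at a similar 16603 genes. Of 6481 genes above 5 TPM in every other germ cell library, 34 were below 1 TPM in the Z-hybrid library, 2 of them at 0 counts. The part of this lower detection in the genes higher in the W-hybrid was not tested.

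Abundant germ cell markers were present in all 3 libraries. DDX4 (vasa), an RNA helicase of the germ line, measured 4312 and 4522 TPM in the W-hybrid, against 5495 TPM in the Z-hybrid, and PIWIL1 (ziwi), a piRNA-binding protein, measured 6414 and 6979 TPM in the W-hybrid, against 5096 TPM in the Z-hybrid. Neither passed the test, and both were below 0.3 TPM in trunk cells. PIWIL2 measured 2083 and 1770 TPM in the W-hybrid, against 1455 TPM in the Z-hybrid. Another germ cell marker chosen beforehand, ca15b, was low and not called. It was at 5.29 and 0.76 TPM in the W-hybrid, against 0.05 TPM in the Z-hybrid, with 0.10 and 0.15 TPM in trunk cells. Markers of other cell types were also detected. col1a1a, a fibroblast collagen, was at 29.6 and 29.4 TPM in the W-hybrid, against 45.6 TPM in the Z-hybrid, while trunk cells had 5708 and 2261 TPM. COL1A2, another collagen, was at 48.0 and 39.5 TPM in the W-hybrid, against 39.2 TPM in the Z-hybrid, while trunk cells had no more than 89.1 and 164 TPM.

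Of 23154 genes tested, 980 (4.23%) were called higher in W-hybrid germ cells and 1146 (4.95%) lower. A call needed a mean above 5 TPM in the higher group, a difference of 1.5-fold or more, and an edgeR adjusted p under 0.05. Because the Z-hybrid at 14 dpf is a single library, the test takes its spread from the W-hybrid batches at 12 and 14 dpf, with 2 residual degrees of freedom, and the p-values hold no spread between Z-hybrid batches. Over all genes the median log2 fold change stood at 0.31, and became 0.64 when libraries were scaled by total count alone in place of TMM. With that scaling the calls split into 1368 higher and 646 lower, so differences below are given beside the median. The median itself varied with level, taken as the W-hybrid mean or the Z-hybrid value, whichever was larger. It was 1.84 for the 9952 genes up to 5 TPM, of which none was called. For genes of 5 to 20, 20 to 100, 100 to 500 and above 500 TPM it was −0.05, −0.02, −0.14 and −0.41. With at least 10 counts in every library it was 0.03.

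A second, test-free criterion asked whether both W-hybrid libraries were well apart from the Z-hybrid library, that is at least 1 log2 unit away on the log2(TPM + 1) scale and farther away than the W-hybrid libraries were from each other. Both W-hybrid libraries lay well apart above the Z-hybrid library for 3514 genes (15.2%) and below it for 1654 genes (7.14%). Of the 2126 called genes, 1816 were also well apart, 974 of them higher and 842 lower in the W-hybrid. The W-hybrid libraries differed from each other by a median of 0.36 log2 units over the called genes, and 3585 of 12448 genes with at least 100 counts in both differed by over 1.5 times in TPM.

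**Figure D1:**
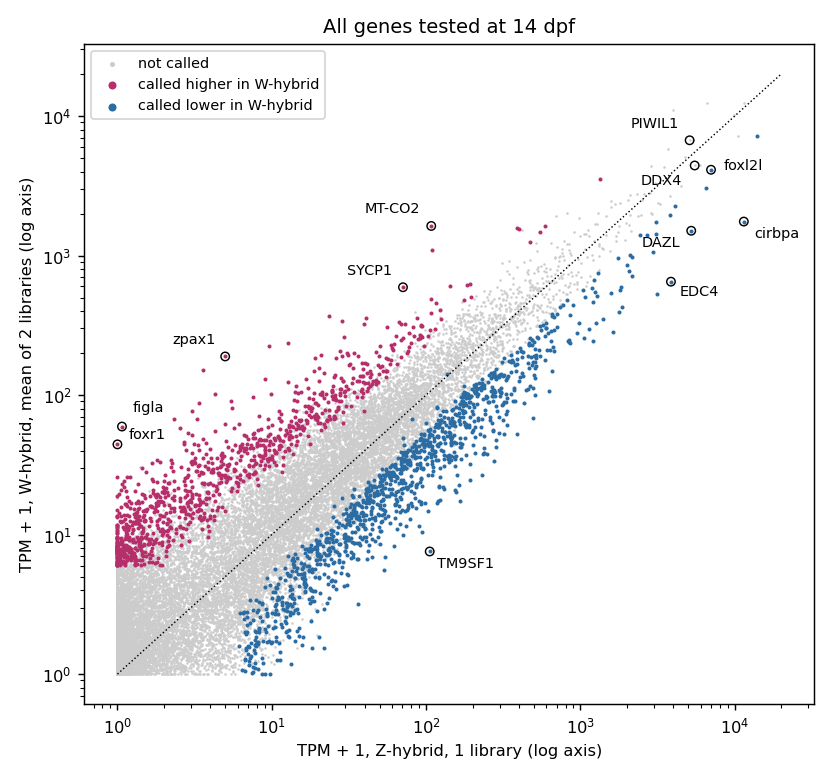
Level of each of the 23154 genes tested at 14 dpf, as TPM + 1 on log axes, with the mean of the 2 W-hybrid libraries upward and the single Z-hybrid library to the right. The 980 genes above the diagonal that were called spread toward the left edge, where the Z-hybrid library has few or no counts, whereas the 1146 called lower extend to the most abundant genes at the upper right.

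Genes on either side differed in level. For genes called higher the median was 23.1 TPM in the W-hybrid, against 2.46 TPM in the Z-hybrid, and 72 of the 980 had no count in the Z-hybrid library. For genes called lower it was 21.7 TPM in the W-hybrid, against 66.0 TPM in the Z-hybrid, and 439 of the 1146 exceeded 100 TPM in 1 of the hybrids, against 154 of the 980. Among the 340 most abundant genes, above 500 TPM in the W-hybrid mean or the Z-hybrid library, 13 were called higher (3.82%) and 87 lower (25.6%). Among 5274 genes between 5 and 20 TPM the balance was the other way, with 460 higher (8.72%) and 253 lower (4.80%). Genes also detected in the trunk were more frequent on the lower side, where 66.0% exceeded 5 TPM in trunk cells, against 47.2% of the genes called higher and 43.2% of all genes tested. All genes tested include the 9952 up to 5 TPM, of which none was called, and these shares were not compared at like level.

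Lists of meiotic prophase genes had the largest shares called higher. In 5 lists that cover the chromosome axis, cohesin, recombination, crossovers and telomere attachment, 26 of 57 genes tested were called higher and 1 lower. Over all genes 4.23% were called higher and 4.95% lower. All 26 were also well apart, as were 974 of the 980 genes called higher, so this adds little to the calls. The median log2 fold change over the 57 genes was 1.25, beside 0.31 over all genes, and 49 of them lay above 0.

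The synaptonemal complex, the protein zipper between paired chromosomes, and the chromosome axis had 4 of 7 genes called higher and none lower, with a median of 1.58. Together the 7 genes summed to 1984 and 2605 TPM in the W-hybrid, against 755.8 TPM in the Z-hybrid. SYCP1, the transverse filament of the complex, was at 542 and 640 TPM in the W-hybrid, against 69.8 TPM in the Z-hybrid. Both W-hybrid libraries lay far above the Z-hybrid library (log2 2.87, SE 0.41, edgeR adjusted p = 0.00187). ccdc36, a zebrafish relative of the axis factor IHO1 known in mammals, measured 70.5 and 113 TPM in the W-hybrid, against 13.01 TPM in the Z-hybrid (log2 2.57, SE 0.56, edgeR adjusted p = 0.0138). HORMAD1, an axis protein that marks unpaired chromosomes, was at 395 and 626 TPM in the W-hybrid, against 211 TPM in the Z-hybrid and missed the threshold (edgeR adjusted p = 0.0748).

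Cohesin, the ring that holds sister chromatids together, was represented by its meiotic subunits. smc1b was at 1214 and 1280 TPM in the W-hybrid, against 472 TPM in the Z-hybrid. The W-hybrid libraries nearly coincided and both stood above the Z-hybrid library (log2 1.2, SE 0.32, edgeR adjusted p = 0.0322). rad21l1, a meiotic kleisin that closes the ring, had a wider gap, with 273 and 369 TPM in the W-hybrid, against 38.5 TPM in the Z-hybrid (log2 2.80, SE 0.38, edgeR adjusted p = 0.00148). The other kleisins, rec8a and rec8b, were also called higher, so that 4 of 7 genes of this list passed, with a median of 1.2.

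Genes for making and repairing the programmed DNA breaks of meiosis had 6 of 18 called higher and none lower, with a median of 1.01. spo11, the enzyme that cuts the DNA, measured 64.9 and 86.2 TPM in the W-hybrid, against 13.3 TPM in the Z-hybrid. DMC1, the meiotic recombinase that carries out strand exchange, measured 144 and 301 TPM in the W-hybrid, against 8.64 TPM in the Z-hybrid, the largest difference among the 6 called (log2 4.43, SE 0.55, edgeR adjusted p = 0.00125). The W-hybrid libraries differed from each other by about as much here as they did for MEIOB, a meiotic protein that binds single-stranded DNA. MEIOB was at 227 and 504 TPM in the W-hybrid, against 22.5 TPM in the Z-hybrid. For both genes the lower W-hybrid value was far above the Z-hybrid value.

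Crossover genes formed the list with the highest median, 1.62, and 9 of 16 were called higher and none lower. MSH5, which stabilizes crossover intermediates, was at 196 and 214 TPM in the W-hybrid, against 26.6 TPM in the Z-hybrid. rnf212b, a ring finger protein of crossover sites, was at 56.5 and 75.6 TPM in the W-hybrid, against 2.30 TPM in the Z-hybrid. HFM1, a meiotic helicase, was at 142 and 127 TPM in the W-hybrid, against 24.3 TPM in the Z-hybrid. In each of these genes the W-hybrid libraries were close to each other relative to their distance from the Z-hybrid.

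The telomere list, for the attachment of chromosome ends to the nuclear envelope, had 3 of 9 genes called higher (terb1, terf1 and SPDYA) and 1 lower, with a median of 1.19. The gene called lower was LMNB1, a lamin of the nuclear envelope in all cells, at 276 and 218 TPM in the W-hybrid, against 481 TPM in the Z-hybrid. The regulators of meiotic entry did not share this direction. Of 18 tested, 1 was called higher and 2 lower, where 4.23% of all genes were called higher and 4.95% lower. The 2 called lower were DAZL, described below, and MAX, at 113 and 112 TPM in the W-hybrid, against 206 TPM in the Z-hybrid. The list had a median of −0.05, beside 0.31 over all genes. The median became 0.27 with scaling by total count, beside 0.64 over all genes, 0.20 with limma, beside 0.26, and 0.10 without W-hybrid replicate 2, beside 0.07. meiosin, which with STRA8 switches on meiotic genes in mice, was at 63.1 and 69.0 TPM in the W-hybrid, against 22.8 TPM in the Z-hybrid. Its call was close to the threshold (log2 1.3, SE 0.39, edgeR adjusted p = 0.0488) and was lost without either W-hybrid replicate.

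**Figure D2:**
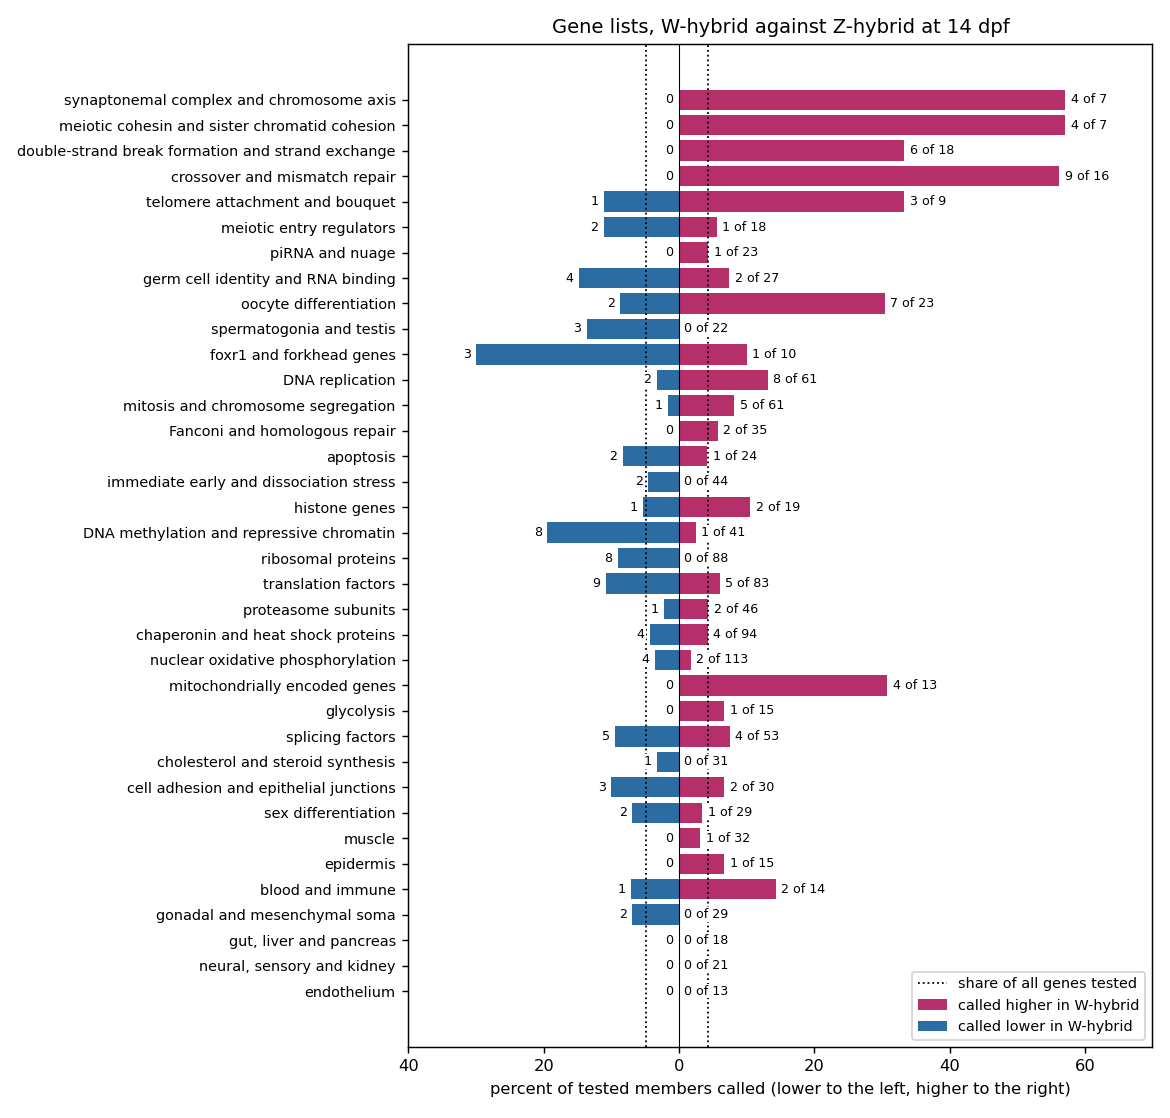
Percent of the tested members of each of the 36 gene lists called in W-hybrid germ cells at 14 dpf, with higher to the right and lower to the left, with the number called beside each bar and the shares of all genes tested, 4.23 and 4.95%, as dotted lines. The lists of the chromosome axis, cohesin and crossovers reach beyond 50% on the right. The forkhead list and that of DNA methylation and repressive chromatin reach farthest to the left.

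More oocyte genes were called higher than lower. Of 23 tested, 7 were called higher and 2 lower, with a median of 1.43, or 1.36 with genes at 0 counts set at their bound. Over all genes 4.23% were called higher and 4.95% lower, with a median of 0.31. The 2 called lower were foxl2l, described below, and CPEB1, at 224.9 and 180.5 TPM in the W-hybrid, against 389.7 TPM in the Z-hybrid. The summed level of the list went the other way, with 5929 and 5458 TPM in the W-hybrid, against 7922 TPM in the Z-hybrid. figla, the transcription factor that starts the first oocyte-specific programme, was at 39.7 and 77.3 TPM in the W-hybrid, against 0.07 TPM in the Z-hybrid, where it had 1 count. Both W-hybrid libraries were far above that count, and the ratio was 665 with a 95% counting interval of 119 to 26259 (edgeR adjusted p = 0.00125). buc (bucky ball), which organizes the Balbiani body of the oocyte, was at 244 and 276 TPM in the W-hybrid, against 28.4 TPM in the Z-hybrid (log2 3.20, SE 0.45, edgeR adjusted p = 0.00183).

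npm2a, a histone chaperone stored in eggs, was at 17.9 and 31.5 TPM in the W-hybrid and had no count in the Z-hybrid, which makes it at least 70.6-fold higher when the Z-hybrid library is set at 3 counts. zpcx, a gene of the egg coat, was at 8.13 and 9.18 TPM in the W-hybrid, against 0.50 TPM in the Z-hybrid. LHX8, a transcription factor needed for oocyte growth in mice, was at 98.9 and 152 TPM in the W-hybrid, against 28.0 TPM in the Z-hybrid. It was called (log2 1.97, SE 0.56, edgeR adjusted p = 0.0422), but the call was lost in limma, in the fit of all 20 germ cell libraries and with an offset for gene length. Ligands that oocytes make did not pass, with GDF9 at 17.6 and 15.2 TPM in the W-hybrid, against 8.75 TPM in the Z-hybrid, and bmp15 at 15 and 12.9 TPM in the W-hybrid, against 18.1 TPM in the Z-hybrid.

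foxr1, a forkhead transcription factor of the ovary, had the largest fitted difference of the genes farthest apart. It was at 43.5 and 43.2 TPM in the W-hybrid, from 733 and 818 counts, and at 0 counts in the Z-hybrid, a difference of at least 183-fold (edgeR adjusted p = 0.00216). Among 10 genes of the forkhead list it was the 1 called higher, and 3 were called lower. foxl2l, which commits germ cells to oogenesis in zebrafish, was among the 3, at 4462 and 3771 TPM in the W-hybrid, against 7013 TPM in the Z-hybrid. Both W-hybrid libraries were below the Z-hybrid library (log2 −1.02, SE 0.30, edgeR adjusted p = 0.0448), and the call was lost in 5 of 12 alternatives. FOXN2, a forkhead factor of wide expression, was at 14.7 and 17.6 TPM in the W-hybrid, against 91.9 TPM in the Z-hybrid (log2 −2.88, SE 0.33, edgeR adjusted p = 0.00125).

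The remaining genes farthest above the Z-hybrid had the same shape by the rule that chose them, low in 1 library and high in both others. zpax1, an egg coat protein, was at 144 and 232 TPM in the W-hybrid, against 3.99 TPM in the Z-hybrid (log2 5.83, SE 0.80, edgeR adjusted p = 0.0016). larp6b, an RNA-binding protein of oocytes, was at 63.9 and 69.8 TPM in the W-hybrid, against 1.34 TPM in the Z-hybrid (log2 5.71, SE 0.65, edgeR adjusted p = 0.00125). An uncharacterized gene, si:ch211-241j8.2, was at 116 and 186 TPM in the W-hybrid, against 2.59 TPM in the Z-hybrid. The others were ovch1, rbis and KYAT3, and the 8 genes together were at 43.3 to 188 TPM in the W-hybrid mean and at 3.99 TPM or less in the Z-hybrid library.

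Among the 15 most abundant genes called higher, 4 were encoded by the mitochondrial genome. MT-CO2, a subunit of cytochrome c oxidase, was at 1355 and 1900 TPM in the W-hybrid, against 107 TPM in the Z-hybrid (log2 3.66, SE 0.46, edgeR adjusted p = 0.00126). MT-CYB, the cytochrome b of complex III, was at 3403 and 3641 TPM in the W-hybrid, against 1339 TPM in the Z-hybrid, a smaller difference (log2 1.15, SE 0.34, edgeR adjusted p = 0.0467). MT-ATP6 and mt-nd4l were the other 2, and all 13 mitochondrial genes lay above 0, with a median of 1.15, beside 0.31 over all genes. Of the 13, 4 (30.8%) were called higher, beside 4.23% of all genes.

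Their sum was 22490 and 33130 TPM in the W-hybrid, against 11760 TPM in the Z-hybrid. By Quartz-seq at 12 dpf the sum was 18820 and 30600 TPM in the W-hybrid, against 8539 TPM in the Z-hybrid. By Smart-seq at 12 dpf it ran from 31560 to 42260 TPM in the W-hybrid and from 40590 to 68250 TPM in the Z-hybrid, so the Quartz-seq libraries and the Smart-seq libraries differed in order. Nuclear genes of oxidative phosphorylation did not move with them, with 2 called higher and 4 lower of 113, and a median of 0.16. Over all genes 4.23% were called higher and 4.95% lower, with a median of 0.31, so neither count exceeded the share of all genes. The hybrids had different mothers, and the mitochondrial genome and the nuclear genotype cannot be told apart here.

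Other abundant genes called higher included genes of the cytoskeleton, of chromosomes and of signalling. tuba7l, an alpha tubulin, was at 1576 and 1693 TPM in the W-hybrid, against 592 TPM in the Z-hybrid. hmgb1a, a protein that bends DNA, was at 1332 and 1827 TPM in the W-hybrid, against 385 TPM in the Z-hybrid (log2 1.78, SE 0.34, edgeR adjusted p = 0.00713). YWHAB, a 14-3-3 adaptor of phosphorylated proteins, was at 436 and 544 TPM in the W-hybrid, against 106 TPM in the Z-hybrid. The rule that named these 3 genes required the W-hybrid libraries to be closer to each other than to the Z-hybrid library. The helicase ddx19a was at 1362 and 1605 TPM in the W-hybrid, against 549 TPM in the Z-hybrid, and its call was lost without W-hybrid replicate 2.

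**Figure D3:**
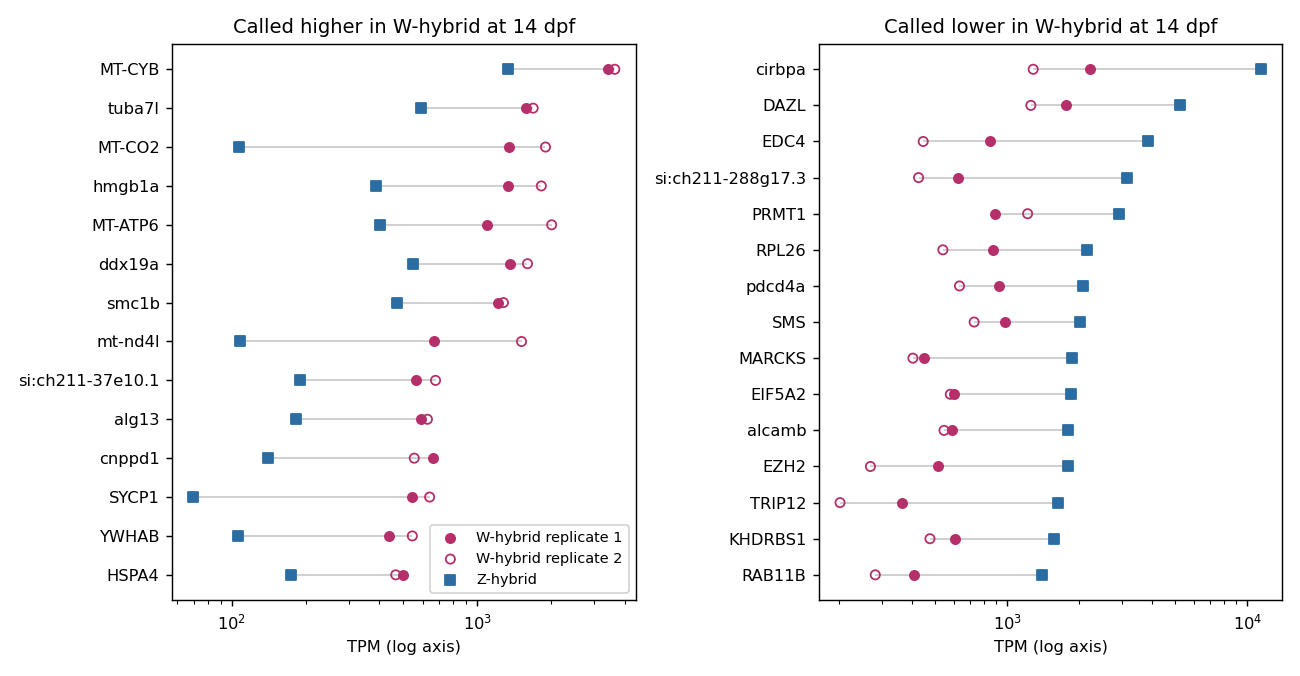
TPM on a log axis of 14 of the 15 most abundant genes called higher (left panel) and the 15 most abundant called lower (right panel) in the W-hybrid at 14 dpf, with circles for the 2 W-hybrid libraries and a square for the Z-hybrid library. By the rule that chose these genes, the square lies outside the range of both circles in every gene plotted, from 69.8 TPM for SYCP1 to 11440 TPM for cirbpa.

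Genes of the mitotic cycle gave a weaker and mixed picture. The list for DNA replication had 8 of 61 genes higher and 2 lower, with a median of 0.28, and the list for mitosis 5 of 61 higher and 1 lower, with a median of 0.44. GMNN (geminin), which blocks relicensing of origins, was at 142 and 243 TPM in the W-hybrid, against 19.7 TPM in the Z-hybrid (log2 2.91, SE 0.66, edgeR adjusted p = 0.0161). MCM8, a helicase that also acts in meiotic recombination, was at 195 and 250 TPM in the W-hybrid, against 49.2 TPM in the Z-hybrid. spc24, a kinetochore protein, was at 131 and 165 TPM in the W-hybrid, against 17.7 TPM in the Z-hybrid. In the opposite direction, PCNA, the sliding clamp of DNA polymerase, was at 2261 and 1665 TPM in the W-hybrid, against 3777 TPM in the Z-hybrid (log2 −1.18, SE 0.32, edgeR adjusted p = 0.0344), and this call was lost in 3 of 12 alternatives. Fanconi and repair genes had 2 of 35 called higher (5.71%), FANCG and RAD17, and none lower. Over all genes tested 4.23% were called higher and 4.95% lower.

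On the lower side the most abundant genes included several of RNA binding and decay. cirbpa, a cold-inducible RNA-binding protein, was the most abundant, at 2217 and 1284 TPM in the W-hybrid, against 11440 TPM in the Z-hybrid (log2 −2.94, SE 0.37, edgeR adjusted p = 0.00125). EDC4, a scaffold of mRNA decapping, was at 849 and 447 TPM in the W-hybrid, against 3857 TPM in the Z-hybrid (log2 −2.78, SE 0.40, edgeR adjusted p = 0.00197). For both genes the W-hybrid libraries differed from each other, and the higher of them was still far below the Z-hybrid library. PRMT1, an arginine methyltransferase, was at 887 and 1217 TPM in the W-hybrid, against 2932 TPM in the Z-hybrid, and KHDRBS1, an RNA-binding signalling protein, at 606 and 477 TPM in the W-hybrid, against 1566 TPM in the Z-hybrid.

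Genes of germ cell identity and RNA binding had 2 of 27 called higher, 4 lower and a median of −0.47. Over all genes 4.23% were called higher and 4.95% lower, with a median of 0.31. This list was not compared with genes of like level. Of all genes of 100 to 500 TPM 17.4% were called lower, and of those above 500 TPM 25.6%. DAZL, an RNA-binding protein that germ cells need to enter gametogenesis, was at 1752 and 1255 TPM in the W-hybrid, against 5219 TPM in the Z-hybrid (log2 −2.04, SE 0.32, edgeR adjusted p = 0.00273). IGF2BP3, a binding protein of maternal mRNA, was at 62.2 and 40.1 TPM in the W-hybrid, against 386 TPM in the Z-hybrid (log2 −3.14, SE 0.37, edgeR adjusted p = 0.00125). Both genes were well apart. nanos2, a repressor of meiosis in male germ cells of mice and a mark of germline stem cells in zebrafish, was at 37.3 and 72.6 TPM in the W-hybrid, against 149.8 TPM in the Z-hybrid and missed the threshold (log2 −1.76, edgeR adjusted p = 0.0698). NANOS3, needed to keep germ cells, was at 7.30 and 13.4 TPM in the W-hybrid, against 36.3 TPM in the Z-hybrid and missed it as well (edgeR adjusted p = 0.0631).

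piRNA genes summed to 23150 and 22330 TPM in the W-hybrid, against 20800 TPM in the Z-hybrid, with a median of 0.26. Of 23 tested, 1 was called higher (henmt1) and none lower, a share of 4.35%, beside 4.23% of all genes called higher. Genes of spermatogonia and testis had none of 22 called higher and 3 lower, with a median of 0.19. DMRT1, which directs testis development, was at 181 and 184 TPM in the W-hybrid, against 317 TPM in the Z-hybrid (log2 −1.04, SE 0.29, edgeR adjusted p = 0.0384), a call lost in 2 of 12 alternatives. ID4, an inhibitor of differentiation in spermatogonial stem cells of mice, was at 5.43 and 11.1 TPM in the W-hybrid, against 37.5 TPM in the Z-hybrid. LIN28A (ENSDARG00000016999), a regulator of let-7 miRNA, was at 6.95 and 2.64 TPM in the W-hybrid, against 13.5 TPM in the Z-hybrid. The call of ID4 was lost in 3 of 11 alternatives and that of LIN28A in 4 of 12, and with scaling by total count or with limma none of the 3 lower calls of this list was left.

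The list for DNA methylation and repressive chromatin had the largest share of lower calls among the lists of over 20 genes. It had 8 of 41 lower and 1 higher, although its median of 0.11 was above 0. Over all genes 4.95% were called lower and 4.23% higher, with a median of 0.31. The list was not compared with genes of like level or length. With scaling by total count 4 were lower and 4 higher, and with limma 2 lower and 2 higher. EZH2, the methyltransferase of Polycomb complex PRC2, was at 517 and 270 TPM in the W-hybrid, against 1785 TPM in the Z-hybrid (log2 −1.81, SE 0.34, edgeR adjusted p = 0.00696). Further members of the complex were also called lower, with SUZ12 (ENSDARG00000070256) at 64.5 and 64.4 TPM in the W-hybrid, against 204 TPM in the Z-hybrid, and JARID2 (ENSDARG00000062268) at 2.43 and 2.47 TPM in the W-hybrid, against 10.2 TPM in the Z-hybrid. tet3, which oxidizes methylated cytosine, was at 4.94 and 5.79 TPM in the W-hybrid, against 24.2 TPM in the Z-hybrid (log2 −2.39, SE 0.32, edgeR adjusted p = 0.00158). The de novo DNA methyltransferases split, since dnmt3bb.3 was at 118 and 150 TPM in the W-hybrid, against 54.0 TPM in the Z-hybrid, and dnmt3ba at 30.9 and 19.5 TPM in the W-hybrid, against 56.7 TPM in the Z-hybrid.

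Ribosomal protein genes had none of 88 called higher and 8 lower, led by RPL26 at 874 and 540 TPM in the W-hybrid, against 2144 TPM in the Z-hybrid. Their median of −0.15 became 0.17 with scaling by total count and 0.10 with limma, where the median of all genes was 0.64 and 0.26, and it lay below that of all genes in each of the 12 alternatives. The calls were 3 higher and 4 lower with scaling by total count, and 3 higher and 2 lower with limma. Translation factors, with 5 higher and 9 lower of 83, had a median of −0.06 that became 0.27 and 0.18 under those settings, also below that of all genes in each of the 12. Neither list was compared with genes of like level. Over all genes of 100 to 500 TPM the median was −0.14, with 17.4% called lower. Over those above 500 TPM it was −0.41, with 25.6% called lower. EIF5A2, an elongation factor, was at 599 and 580 TPM in the W-hybrid, against 1838 TPM in the Z-hybrid (log2 −1.93, SE 0.29, edgeR adjusted p = 0.00216). eif4ebp1, which holds back cap-dependent translation, was at 219 and 192 TPM in the W-hybrid, against 676 TPM in the Z-hybrid. Splicing factors were divided, with 4 higher and 5 lower of 53, among them U2AF2 at 268 and 208 TPM in the W-hybrid, against 844 TPM in the Z-hybrid.

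Immediate early genes, which dissociation can induce, had 2 of 44 called lower and none higher. That share, 4.55%, was close to the 4.95% of all genes called lower. Their median of −0.17 became 0.17 with scaling by total count and 0.05 with limma, beside 0.64 and 0.26 over all genes. Their sum of 2944 and 2667 TPM in the W-hybrid, against 3052 TPM in the Z-hybrid, was below the 11840 and 10220 TPM of trunk cells.

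The 8 genes farthest below the Z-hybrid library were at 6.57 TPM or less in the W-hybrid mean and at 7.99 to 104.5 TPM in the Z-hybrid. TM9SF1, a membrane protein of the secretory pathway, had the smallest adjusted p of all genes tested, at 6.43 and 6.70 TPM in the W-hybrid, against 104.5 TPM in the Z-hybrid (log2 −4.31, SE 0.36, edgeR adjusted p = 0.00064). NID1, a basement membrane protein, was at 4.08 and 5.01 TPM in the W-hybrid, against 52.5 TPM in the Z-hybrid (log2 −3.76, SE 0.37, edgeR adjusted p = 0.000842). The W-hybrid libraries were nearly equal for both. VASN, a membrane protein that binds TGF-beta, was at 0.17 and 0.21 TPM in the W-hybrid, against 12.3 TPM in the Z-hybrid.

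Among abundant membrane and trafficking genes called lower, MARCKS, a protein kinase C substrate at the membrane, was at 449 and 405 TPM in the W-hybrid, against 1862 TPM in the Z-hybrid (log2 −2.37, SE 0.30, edgeR adjusted p = 0.00125). RAB11B, a GTPase of recycling endosomes, was at 411 and 282 TPM in the W-hybrid, against 1390 TPM in the Z-hybrid (log2 −2.24, SE 0.32, edgeR adjusted p = 0.00199). CTNND1 (p120 catenin), which stabilizes cadherins, was at 263 and 222 TPM in the W-hybrid, against 641 TPM in the Z-hybrid. All 3 genes had both W-hybrid libraries well below the Z-hybrid library, which the rule required of MARCKS and RAB11B. The adhesion list to which CTNND1 belongs had 2 of 30 called higher and 3 lower, with a median of −0.51. Over all genes 4.23% were called higher and 4.95% lower, with a median of 0.31. The list was not compared with genes of like level.

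In 7 lists of markers of other cell types, 4 genes were called higher (actn3b, PPL, lyz and SLC4A1) and 3 lower (RAG1, PDGFRB and COL5A1) of 142 tested. Over all genes tested the shares were 4.23% higher and 4.95% lower, so these counts were no larger than the shares of all genes. A call needed a mean above 5 TPM in the higher group, so markers below that level could not be called. Gut, liver and pancreas markers, for example, summed to 34.8 and 31.5 TPM in the W-hybrid, against 18.9 TPM in the Z-hybrid. The low counts therefore do not show that these cell types were alike between the hybrids. The summed level of muscle markers was 393.3 and 441.9 TPM in the W-hybrid, against 431.4 TPM in the Z-hybrid, and that of epidermis 166.6 and 176.2 TPM in the W-hybrid, against 153.8 TPM in the Z-hybrid. Trunk cells had 37360 and 100800 TPM of the epidermal genes, and 7888 and 137.1 TPM of the muscle genes, the second below all 3 germ cell libraries. Neural, sensory and kidney markers summed to 655.4 and 703.4 TPM in the W-hybrid, against 415.8 TPM in the Z-hybrid, and to 489 and 458.5 TPM in trunk cells, so that list and the endothelial list, at 58.9 and 46.7 TPM in trunk cells, do not separate germ cells from trunk. Gonadal and mesenchymal markers summed to 411.2 and 339.0 TPM in the W-hybrid, against 367.1 TPM in the Z-hybrid. gsdf, a growth factor of the gonadal soma, was at 0 and 0.15 TPM in the W-hybrid, against 2.74 TPM in the Z-hybrid and was not called (edgeR adjusted p = 0.0625). Since each library is a pool of sorted cells, fewer cells of a type and less RNA per cell cannot be told apart, for germ cell stages as well as for other cells.

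By Quartz-seq at 12 dpf, where again 2 W-hybrid libraries and 1 Z-hybrid library were made, most abundant genes lay in the same order. Both W-hybrid libraries were above the Z-hybrid library for 13 of the 15 abundant genes called higher at 14 dpf, and below it for 15 of the 15 called lower. Over all called genes, this held for 669 of 980 (68.3%) called higher and 920 of 1146 (80.3%) called lower, beside 43.8 and 41.6% of all genes tested. The Z-hybrid library at 12 dpf had 13828828 counts, against 25610711 and 37224644 in the W-hybrid. Of 7044 genes above 5 TPM in every other germ cell library, 273 were below 1 TPM in it, and 67 were at 0 counts. The part of this lower detection in the shared order and in the comparison of ages below was not tested. cirbpa was at 2184 and 1575 TPM in the W-hybrid, against 16401 TPM in the Z-hybrid at 12 dpf, EDC4 at 884 and 571 TPM in the W-hybrid, against 4566 TPM in the Z-hybrid, and DAZL at 1754 and 1490 TPM in the W-hybrid, against 5242 TPM in the Z-hybrid.

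By Smart-seq at 12 dpf, with 4 libraries of each hybrid, the ranges of the hybrids overlapped for 13 of the 15 abundant genes called higher, all 15 called lower, and all 16 genes farthest apart. Over all genes tested, every W-hybrid library was above every Z-hybrid library for 2.87% and below for 1.40%, so most genes overlapped. cirbpa ran from 1189 to 2008 TPM in the W-hybrid and from 1277 to 1381 TPM in the Z-hybrid, EDC4 from 64.9 to 115 TPM in the W-hybrid and from 66.3 to 76.1 TPM in the Z-hybrid, and figla from 14.2 to 38.5 TPM in the W-hybrid and from 3.52 to 77.8 TPM in the Z-hybrid. The exceptions among the abundant genes were MT-CYB and mt-nd4l, for which every Z-hybrid library was above every W-hybrid library. Over the genes called higher at 14 dpf, the mean of the W-hybrid was above that of the Z-hybrid in 45.2%, and over those called lower the mean of the Z-hybrid was above in 37.7%, beside 56.7 and 42.9% of all genes tested. Age and method both differ between Smart-seq at 12 dpf and Quartz-seq at 14 dpf, and no Smart-seq library was made at 14 dpf. At 12 dpf both methods were used, so age was the same. There cirbpa and EDC4 were higher in the Z-hybrid by Quartz-seq, whereas by Smart-seq the ranges of the hybrids overlapped. The parts of method, batch and the single Z-hybrid library of Quartz-seq in this were not tested.

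**Figure D4:**
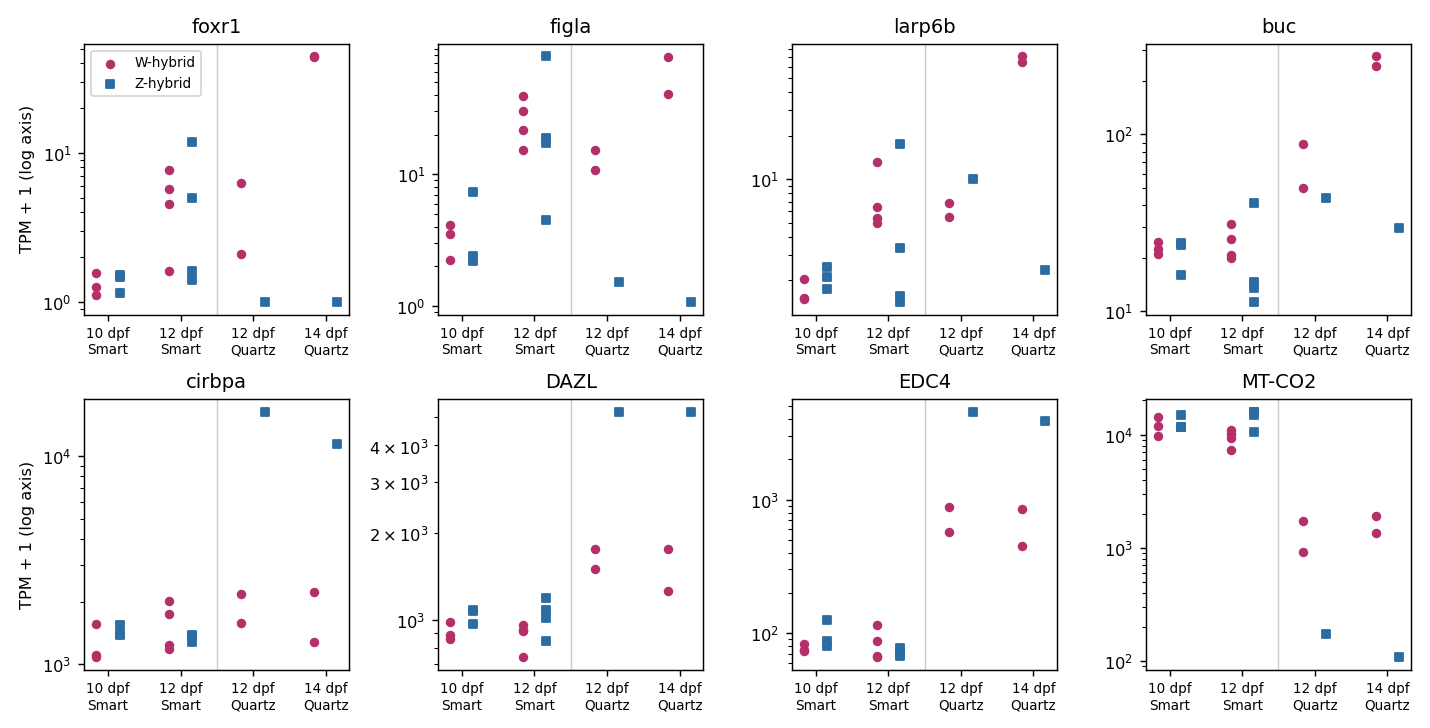
TPM + 1 on a log axis of 8 genes in each of the 20 germ cell libraries, with W-hybrid (circles) left of Z-hybrid (squares) in each set and the Smart-seq sets left of the Quartz-seq sets. foxr1, figla, larp6b and buc are highest in the W-hybrid at 14 dpf, apart from 1 Z-hybrid library of figla at 12 dpf by Smart-seq, at 77.8 TPM, and cirbpa, DAZL and EDC4 are highest in the Z-hybrid libraries made by Quartz-seq at both ages.

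The difference between hybrids at 14 dpf was tested against that at 12 dpf within the Quartz-seq libraries. It was more positive at 14 dpf for 956 genes (4.13%) and more negative for 1874 genes (8.09%) at an adjusted p under 0.05 in edgeR, with the 12 dpf Z-hybrid library also single. Of the 2126 genes called at 14 dpf, 513 passed this test. Genes called or named at 14 dpf were chosen by values that the test uses again, so the choice itself favours passing. None of the 15 abundant genes called higher passed, and 2 of the 15 called lower did. Of the 8 genes farthest above the Z-hybrid 5 passed. larp6b was the clearest, at 5.81 and 4.46 TPM in the W-hybrid, against 8.98 TPM in the Z-hybrid at 12 dpf, so that the Z-hybrid was above both W-hybrid libraries at that age.

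Of the 26 meiotic prophase genes called higher at 14 dpf, 6 passed it. By Quartz-seq at 12 dpf, SYCP3, a protein of the lateral elements of the synaptonemal complex, was at 148 and 199.6 TPM in the W-hybrid, against 25.3 TPM in the Z-hybrid. DMC1 was at 72.9 and 59.6 TPM in the W-hybrid, against 2.09 TPM in the Z-hybrid. By Smart-seq at that age the ranges of the hybrids overlapped for both genes. SYCP3 ran from 158.8 to 312.8 TPM in the W-hybrid and from 92.65 to 500 TPM in the Z-hybrid. DMC1 ran from 92.0 to 131.4 TPM in the W-hybrid and from 39.5 to 351.1 TPM in the Z-hybrid. By Quartz-seq at 12 dpf, muscle markers summed to 669.9 and 5291 TPM in the W-hybrid, against 341.1 TPM in the Z-hybrid. W-hybrid replicate 2 at that age thus held more of them than any of the 14 dpf libraries. Their part in the difference between ages was not tested.

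Gene length moved with the result. In quartiles of gene length, from the shortest (156 to 1297 bases) to the longest (3055 to 88550 bases), the median log2 fold change was 0.76, 0.49, 0.21 and −0.08. Genes called higher made up 3.32% of the shortest quartile and 3.59% of the longest, and genes called lower 1.26% of the shortest and 10.3% of the longest. The median length was 1990 bases for the genes called higher and 3104 bases for those called lower, beside 1950 bases for all genes. With an offset for length in each library, chosen after seeing the data, 1215 genes were called higher and 1126 lower, among them 968 of the 980 and 986 of the 1146.

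**Figure D5:**
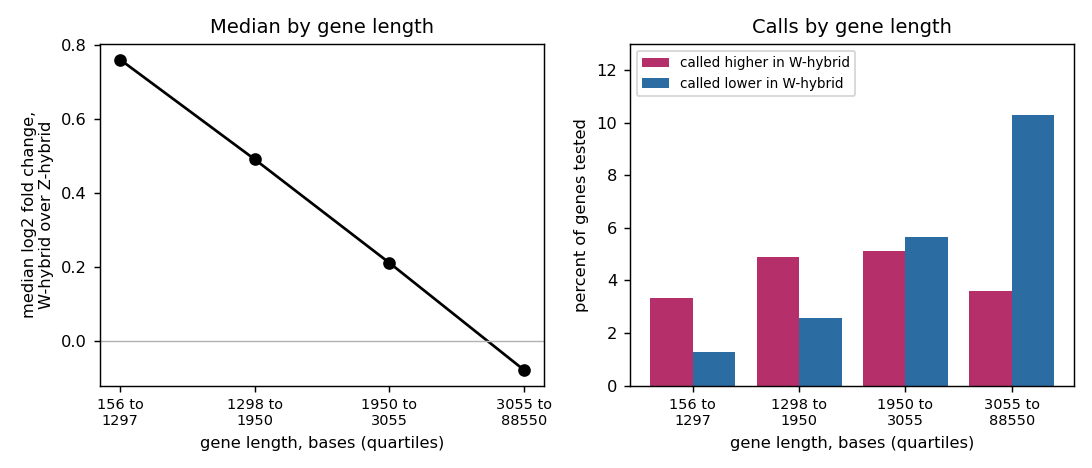
Median log2 fold change of W-hybrid over Z-hybrid (left) and percent of genes called in each direction (right) by quartile of gene length in bases, over the 23154 genes tested at 14 dpf. The median falls from 0.76 in the shortest quartile to −0.08 in the longest, where 10.3% of genes were called lower.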

How the data were processed

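Expected counts and TPM of 32057 genes were deposited by the authors for each of 22 libraries. Per the labels, STAR 2.7.7a, RSEM 1.3.1 and GRCz11 appear in the submitters' processing notes. RSEM shares reads that fit several genes between them, so members of gene families are uncertain. The deposited TPM are scaled by the authors for gene length and to a fixed total. A deposited table of whole counts for the series equals the rounded expected counts and was not used. Symbols were found for 28988 genes (90.4%).

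Groups come from the labelled cross, age and method. The W-hybrid libraries were not copies, since 22721 of 23154 genes differed in count. Nothing in the labels says how batches were separated, so p-values measure the spread between batches only.

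Rounded expected counts of 6 Quartz-seq libraries were fitted in edgeR 4.0.16 (R 4.3.3) with TMM, filterByExpr, robust quasi-likelihood tests and Benjamini-Hochberg adjustment over all genes, with the study's thresholds. The SE is the log2 fold change over the square root of F. The test was tested on simulated data. A fold against 0 counts is a bound that takes 3 counts in that library, scaled by TMM. Intervals and floors cover counting error only. Named genes were the 15 most abundant called and well apart in each direction, the 8 farthest apart in each direction, the leading called members of each list, and germ cell markers. Genes named beyond these (HORMAD1, GDF9, bmp15, gsdf and further list members) were chosen after their values were seen. The genes compared and all lists were chosen with earlier results of these data known. After the files were read, kinases were removed from the ribosomal list, and symbols without their paralogue letter were also matched.

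Alternatives were DESeq2 1.42.0, limma 3.58.1 on log2(TPM + 1), scaling by total count, other filters, fits of the 14 dpf or all 20 germ cell libraries, thinned counts, a replicate block, leaving out each replicate, other pseudocounts and distances, and, added after seeing the data, an offset for gene length. No sequences were used. Some genes that the rule names are not reported here.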

Additional observations from a re-analysis of the deposited data

Results flagged for a closer look

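For 9 of the genes named among the most abundant or the farthest apart, the difference between the hybrids at 14 dpf differed from that at 12 dpf by edgeR's test of the difference itself, within the Quartz-seq libraries. Values below are the log2 difference at 14 dpf minus that at 12 dpf. The test uses 1 Z-hybrid library at each age. The genes were chosen by their values at 14 dpf, which the test uses again, so the choice itself favours passing.

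It was higher at 14 dpf for 5 genes of the group farthest above the Z-hybrid. The value was 6.35 for larp6b (edgeR adjusted p = 0.00105), whose log2 fold change was 5.71 at 14 dpf and −0.64 at 12 dpf. It was 4.47 for zpax1 (edgeR adjusted p = 0.00874), with 5.83 at 14 dpf and 1.37 at 12 dpf. It was 4.04 for ovch1 (edgeR adjusted p = 0.00701), 3.34 for rbis (edgeR adjusted p = 0.0173) and 3.27 for KYAT3 (edgeR adjusted p = 0.00365). KYAT3 was at 77.5 and 92.7 TPM in the W-hybrid, against 46.2 TPM in the Z-hybrid at 12 dpf, and at 86.3 and 114 TPM in the W-hybrid, against 3.30 TPM in the Z-hybrid at 14 dpf, so its level in the W-hybrid was close at both ages.

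It was lower at 14 dpf for 4 genes. EIF5A2 had a value of −1.88 (edgeR adjusted p = 0.016), with −1.93 at 14 dpf and −0.06 at 12 dpf, and si:ch211-288g17.3 a value of −1.56 (edgeR adjusted p = 0.0388), with −2.23 at 14 dpf and −0.67 at 12 dpf. VASN had a value of −8.52 (edgeR adjusted p = 0.0334) and was below 1 TPM in all 3 Quartz-seq libraries at 12 dpf. ENSDARG00000102513 had a fitted value of −15.21 (edgeR adjusted p = 0.0335). It had no count in either W-hybrid library at 14 dpf, against 7.99 TPM in the Z-hybrid, and at 12 dpf the Z-hybrid had 0 TPM, so the fitted value depends on the prior count and is no size of effect.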

How the results depend on the processing

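Beside 980 genes higher and 1146 lower, the counts were 1594 higher with DESeq2, 1541 higher and 1756 lower in the 14 dpf libraries alone, 2127 and 2314 with all 20 germ cell libraries, 520 higher at a mean above 20 TPM, 646 lower with scaling by total count, and 428 lower with limma. Without W-hybrid replicate 1 or 2 the higher calls were 1128 and 883, and the lower calls 1493 and 1074. Both W-hybrid libraries lay well apart above the Z-hybrid library for 5606 genes with a pseudocount of 0.1, 1456 with 5, and 894 at a distance of 2 log2 units, and below it for 801 with a pseudocount of 5 and 261 at that distance, beside 3514 and 1654.

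The hybrid difference was more positive at 14 than at 12 dpf for 956 genes, against 1670 with DESeq2, 1563 without a filter, 494 with at least 10 counts in every library, 2571 with all 20 libraries and 539 with limma. It was more negative for 1874 genes, against 1187 with scaling by total count, 797 with at least 10 counts, 4051 with all 20 libraries and 471 with limma. Leaving out a 14 dpf W-hybrid replicate gave 1180 and 1430 more positive, and 2156 and 2564 more negative. The cause of these differences was not tested.

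Whether the replicate numbers pair the samples was not settled. Over 23154 genes the deviations of same-numbered W-hybrid libraries at 12 and 14 dpf correlated with r = 0.13. This comes from 2 pairs, too few to decide. A fit with the replicate block gave 1887 higher and 2302 lower, 1669 more positive and 3320 more negative, and left zpax1 uncalled among the named genes. Of 143 named genes, 37 changed their side of the threshold to uncalled with limma, 21 with scaling by total count, 21 without W-hybrid replicate 2 and 6 without replicate 1. The log2 value of PIWIL2, 0.17 and not called, was −0.02 without replicate 1 and 0.28 without replicate 2.

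A single Z-hybrid library limits every value here, as does its lower detection. Differences of genes near the floor of 3 counts are bounds.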

Other observations

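Genes were also grouped by the opening letters of their symbols, a grouping chosen after the values were seen and given as counts only, for 105 openings with at least 20 genes tested. Cilia and flagella associated proteins (symbols opening with cfap), which build motile cilia and sperm tails, had 9 of 39 genes called higher and 1 lower, with a median log2 fold change of 1.16 beside 0.31 over all genes. Over all genes tested 4.23% were called higher and 4.95% lower. Other openings with large shares called higher were gtf, with 5 of 22, and rad, with 4 of 21. cfap210 was at 19.7 and 26.2 TPM in the W-hybrid, against 0.80 TPM in the Z-hybrid (log2 4.93, SE 0.74, edgeR adjusted p = 0.00216). CFAP20DC was at 4.14 and 6.56 TPM in the W-hybrid and at 0 counts in the Z-hybrid, at least 47.8-fold higher, and cfap70 was at 64.0 and 89.9 TPM in the W-hybrid, against 21.0 TPM in the Z-hybrid. cfap36 went the other way, at 42.1 and 28.0 TPM in the W-hybrid, against 86.7 TPM in the Z-hybrid.

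Small GTPases of vesicle traffic and their partners (symbols opening with rab) had 12 of 79 called lower (15.2%) and 3 higher (3.80%). For this and the next 2 openings, the shares over all genes tested are 4.95% lower and 4.23% higher. These openings were not compared with genes of like level or length. Of all genes of 100 to 500 TPM 17.4% were called lower, of those above 500 TPM 25.6%, and of the longest quartile of genes 10.3%. RAB11A, the paralogue of RAB11B in recycling endosomes, was at 131 and 93.6 TPM in the W-hybrid, against 489 TPM in the Z-hybrid (log2 −2.35, SE 0.31, edgeR adjusted p = 0.0014). Palmitoyltransferases (zdhhc) had 6 of 31 called lower and 2 higher, with a median of −0.93. DEAD-box helicases (ddx) had 7 of 35 called lower and 2 higher, among the lower ones DDX6, a factor of mRNA storage and decay, at 15.04 and 12.3 TPM in the W-hybrid, against 63.0 TPM in the Z-hybrid. ddx19a, described above as abundant, was 1 of the 2 called higher.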
